A study of Homo sapiens with 39 samples.

Results

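The human mitochondrial genome carries 37 genes, and all 37 were found among the 57773 rows of the count table by their symbol, which starts with MT-. They comprise 13 mRNAs, 2 ribosomal RNAs (rRNAs) and 22 transfer RNAs (tRNAs). After a filter on low counts, all 13 mRNAs, both rRNAs and 14 tRNAs could be tested; the 8 remaining tRNAs were MT-TR, MT-TV, MT-TM, MT-TS1, MT-TK, MT-TD, MT-TN and MT-TA. The genes were followed over 39 RNA sequencing libraries of JJN3, an established multiple myeloma line, a cancer of plasma cells. The 13 groups of 3 libraries were cells at the outset (labelled T0) and cells kept with GSK-J4, with ZnSO4 or with DMSO alone (the vehicle) over 1, 3, 6 or 24 h. The compound GSK-J4 blocks the KDM6 family of histone demethylases, which remove methyl groups from lysine 27 of histone H3, and ZnSO4 supplies zinc. All groups were the same line in RPMI medium with 10% FCS, and no dose could be taken from the labels.

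Both strands of the mitochondrial genome are transcribed as long precursors by the polymerase POLRMT with the help of TFAM and TFB2M. The tRNAs lie between most mRNAs and rRNAs, and their excision frees the RNAs on either side. The heavy-strand transcript carries most genes, while MT-ND6 and a minority of tRNAs come from the light-strand transcript. The mRNAs encode core subunits of complex I (MT-ND genes), complex III (MT-CYB), complex IV (MT-CO genes) and ATP synthase (MT-ATP genes). The remaining subunits, and every protein that copies and processes mitochondrial RNA, are nuclear encoded. The rRNAs MT-RNR1 and MT-RNR2 form the small and large subunits of the mitochondrial ribosome.

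Several neighbours on this compact genome share bases, and these are the sequences that bear on how counts can be split between genes. All sequences were taken from GENCODE 29 transcripts (GRCh38), 5′ to 3′. In the first pair of lines, capitals mark the end that an mRNA shares with the start of the next mRNA: 46 bases of MT-ATP8 with MT-ATP6, and 7 bases of MT-ND4L with MT-ND4.
MT-ATP8: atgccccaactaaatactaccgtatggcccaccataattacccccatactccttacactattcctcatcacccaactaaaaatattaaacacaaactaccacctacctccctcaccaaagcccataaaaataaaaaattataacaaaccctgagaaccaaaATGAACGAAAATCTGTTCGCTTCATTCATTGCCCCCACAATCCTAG
MT-ND4L: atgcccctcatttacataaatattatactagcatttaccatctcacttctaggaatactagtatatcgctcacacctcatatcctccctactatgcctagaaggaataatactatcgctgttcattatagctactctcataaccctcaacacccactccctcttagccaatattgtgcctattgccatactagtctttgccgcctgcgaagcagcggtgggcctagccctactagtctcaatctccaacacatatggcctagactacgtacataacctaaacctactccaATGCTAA

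Next come tRNAs whose counts are described below for GSK-J4. MT-TI (isoleucine) and MT-TQ (glutamine) lie side by side on opposite strands, and capitals mark the 3 bases at which their ends meet as reverse complements. MT-TW (tryptophan), MT-TL2 (leucine), MT-TS2 (serine) and MT-TG (glycine) are heavy-strand tRNAs that were lower in some GSK-J4 groups. MT-TP (proline), from the light strand, held the most counts of all 22 tRNAs.
MT-TI: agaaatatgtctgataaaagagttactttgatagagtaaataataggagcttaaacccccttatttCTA
MT-TQ: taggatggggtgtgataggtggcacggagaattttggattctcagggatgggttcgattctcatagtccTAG
MT-TW: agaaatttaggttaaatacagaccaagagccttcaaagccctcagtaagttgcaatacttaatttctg
MT-TL2: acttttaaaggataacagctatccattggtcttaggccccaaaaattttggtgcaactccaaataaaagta
MT-TS2: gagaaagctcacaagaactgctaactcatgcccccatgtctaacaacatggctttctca
MT-TG: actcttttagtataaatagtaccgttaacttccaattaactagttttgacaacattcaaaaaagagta
MT-TP: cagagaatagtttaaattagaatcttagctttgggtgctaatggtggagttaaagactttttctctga

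Library totals ranged from 4347745 to 10695671 counts (median 6010529), and the mitochondrial genes together held 133416 to 446313 counts per library. Plasma cell markers were present in all libraries (JCHAIN 9070 to 12200 CPM, a library-size scaled count), and all 8 plasma cell markers had counts in every library. The 4 T cell and 4 monocyte markers did not pass the filter. CD3D and LYZ were at 0 in 38 and 33 libraries, while CD2, CD3E and CD3G were at 0 in 3 to 5 libraries with at most 1.42 CPM, and CD14 had counts in all (0.123 to 1.25 CPM). Some markers of other cell types were present in every library: EPCAM at 30.8 to 62.6 CPM, KRT8 at 4.29 to 16.3, KRT18 at 0.164 to 2.23, COL1A1 at 3.6 to 32.7 and COL1A2 at 1.06 to 33.2 CPM. So were the B cell markers MS4A1 (1.25 to 6.01 CPM) and PAX5 (0.172 to 3.15 CPM) and the erythroid marker HBB (0.18 to 2.47 CPM). The libraries of T0 replicate 3, ZnSO4 1 h replicate 2 and ZnSO4 3 h replicate 1 stood apart from their group in mitochondrial counts. Some counts of called mRNAs that include them are also given without them. For DMSO at 1, 3 and 6 h against T0, ranges over left-out libraries are given. ZnSO4 against DMSO at 1 h had 0 mRNAs called whichever library was left out. Whether replicates came from separate cultures is not labelled. The p-values therefore reflect the spread among these libraries, and that spread could be technical. Strand marking by the kit is not given, so reads from a gene and from an antisense transcript across it cannot be told apart. The table also lists 389 nuclear copies of mitochondrial genes (pseudogenes), whose counts amounted to 2.149% of those of the mitochondrial genes, and reads of near-identical copies could fall to either. Genes named MTRNR2L, nuclear relatives of MT-RNR2, were not counted among these copies. For some genes the copies weighed more. Means at T0 were 232.1 CPM for MTCO3P12 beside 2814 CPM for MT-CO3, and 439 CPM for MTCO1P12 beside 5370 CPM for MT-CO1.

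Mitochondrial mRNAs were a smaller share of the counts after GSK-J4 and mitochondrial rRNAs a larger one. At 6 h the mRNA share was 3.288, 3.279 and 3.203% in the DMSO libraries, 2.601, 2.627 and 2.494% with GSK-J4, and 3.427, 3.525 and 3.551% with ZnSO4. The GSK-J4 libraries lay below all DMSO libraries at 1, 3, 6 and 24 h, with differences of -0.354, -0.489, -0.682 and -0.537 percentage points between the means. rRNAs made up 0.2558 ± 0.0046% of counts in DMSO at 6 h (SD, n = 3) and 0.4931 ± 0.0065% with GSK-J4. Per 100 mRNA counts there were 7.858 ± 0.255 rRNA counts in DMSO at 6 h and 19.16 ± 0.61 with GSK-J4 (SD, n = 3), and 8.074 ± 0.413 with ZnSO4. The tRNA share was 0.006221 ± 0.001053% in DMSO at 6 h and 0.009265 ± 0.000347% with GSK-J4. These shares are described without a test. The kind of RNA selection is not given, and whether the rRNA share follows the rRNA level was not tested. A share of counts in bulk RNA does not tell less mitochondrial RNA per cell from more RNA of other genes.

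**Figure D1:**
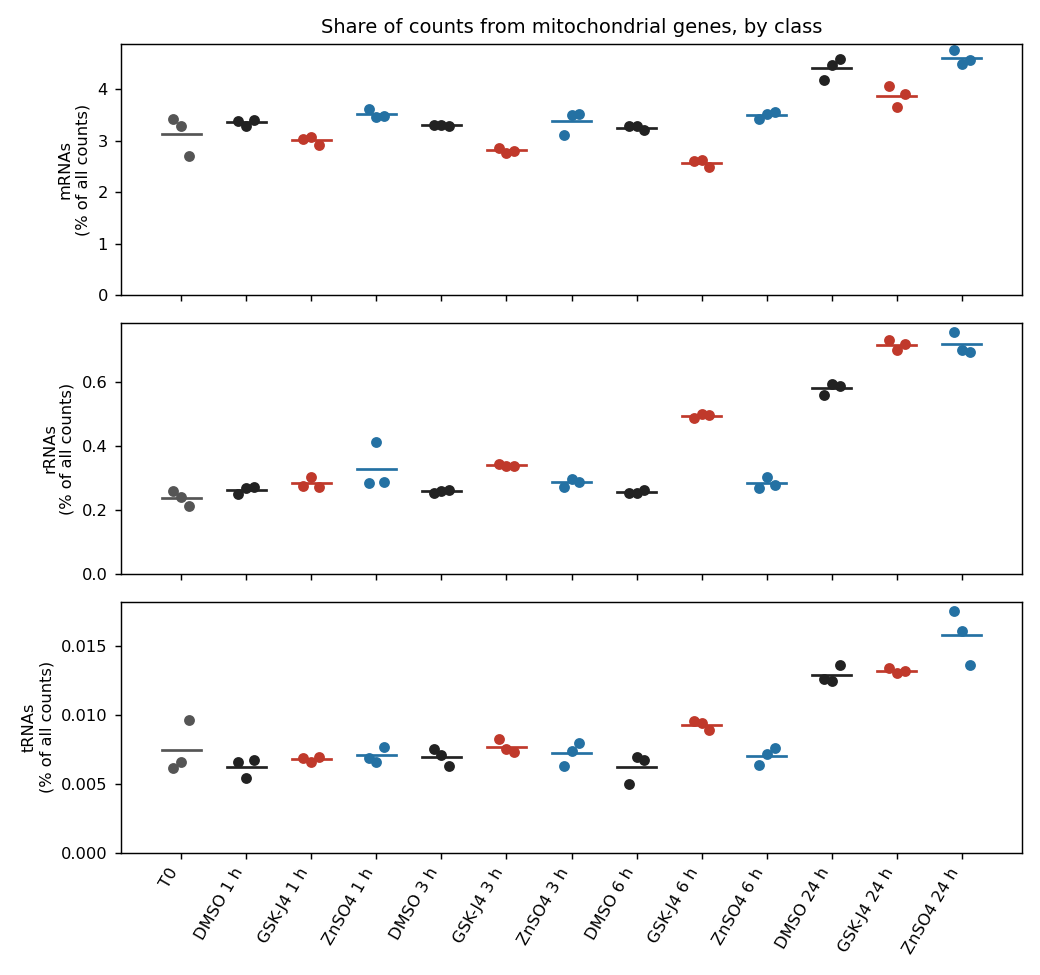
Percent of all counts from mitochondrial mRNAs (top), rRNAs (middle) and tRNAs (bottom) in each of the 39 libraries (dots) with the mean of each group (bars), by treatment and time; grey is T0, black DMSO, red GSK-J4 and blue ZnSO4. The mRNA share of GSK-J4 lies below DMSO at every time. Its rRNA share lies above DMSO at every time, though barely at 1 h (lowest GSK-J4 library 0.2705%, highest DMSO library 0.2703%). All classes are higher in the 24 h libraries than in DMSO at 6 h.

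The mRNAs of complex IV and ATP synthase, 5 in all, were each lower after 3, 6 and 24 h of GSK-J4. MT-CO3 (ENSG00000198938), subunit 3 of cytochrome c oxidase, read 2879, 2895 and 2774 CPM in DMSO at 6 h, against 1549, 1465 and 1416 CPM with GSK-J4, scaled by TMM (a correction for library composition). No GSK-J4 library overlapped DMSO. It fell to a log2 fold change (log2FC) of -0.95 ± 0.06 (standard error; adjusted p = 1.89e-22). Here and below the tests are edgeR's quasi-likelihood F-test with Benjamini-Hochberg adjustment over 14460 genes, a gene is called at adjusted p under 0.05, and n = 3 libraries per group. MT-CO3 was already lower at 1 h, with 2258, 2334 and 2130 CPM against 2820, 2819 and 2900 CPM in DMSO (log2FC -0.345 ± 0.055, adjusted p = 5.94e-05). At 24 h it read 2830, 2462 and 2618 CPM against 4263, 4605 and 4956 CPM (log2FC -0.81 ± 0.05, adjusted p = 5.13e-19).

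MT-ATP6, which forms part of the proton channel of ATP synthase, read 2365, 2374 and 2352 CPM in DMSO at 6 h and 1412, 1423 and 1328 CPM with GSK-J4. It fell by 0.28, 0.51, 0.77 and 0.63 on the log2 scale at 1, 3, 6 and 24 h, and passed the test each time (adjusted p = 0.00015, 4.19e-13, 3.42e-21 and 3.53e-17). MT-ATP8, a small subunit of the same enzyme whose reading frame ends inside that of MT-ATP6, did not pass at 1 h (log2FC -0.22 ± 0.08, adjusted p = 1) and fell from 3 h on, with log2FC -0.79 ± 0.08 at 6 h (adjusted p = 2.53e-12). Its 207 bases share 46 with MT-ATP6, as shown above, so its count depends on how the authors handled reads over both genes.

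MT-CO2, which carries the first copper centre of complex IV, fell at 3, 6 and 24 h by 0.39, 0.52 and 0.48 (log2 scale; adjusted p = 1e-07, 2.25e-12 and 3.54e-11). MT-CO1, the catalytic subunit that reduces oxygen, fell by less, with log2FC -0.24 ± 0.05, -0.36 ± 0.05 and -0.36 ± 0.05 at those times. Its call at 3 h (adjusted p = 0.00145) ended without GSK-J4 3 h replicate 2 (log2FC -0.20, adjusted p = 0.0566). MT-CYB, the cytochrome b subunit of complex III, had log2FC -0.06 ± 0.07 and -0.21 ± 0.07 at 1 and 3 h, neither passing the test. At 6 h it read 2065, 2058 and 1932 CPM against 3172, 3288 and 3161 CPM in DMSO, without overlap, and had fallen by 0.67 (log2 scale; adjusted p = 3.96e-12).

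The 7 mRNAs of complex I did not move as a group. MT-ND2, a membrane subunit, read 1167, 1159 and 1104 CPM at 6 h of GSK-J4 against 1890, 1890 and 1987 CPM in DMSO (log2FC -0.75 ± 0.06, adjusted p = 2.98e-15). MT-ND3, another membrane subunit, fell likewise, from 422.5, 449.2 and 497.2 CPM to 264.0, 254.7 and 234.1 CPM (log2FC -0.86 ± 0.08, adjusted p = 3.84e-14). Both were already called at 1 h (log2FC -0.30 ± 0.06 and -0.36 ± 0.07; adjusted p = 0.0092 and 0.00942), but each call was lost when DMSO 1 h replicate 1 or 3 or GSK-J4 1 h replicate 1 or 3 was left out (adjusted p = 0.0746 to 0.26). MT-ND4 and MT-ND4L, which share 7 bases, fell little at 6 h (log2FC -0.21 ± 0.06 and -0.24 ± 0.09; adjusted p = 0.0112 and 0.0395). The MT-ND4 call ended without DMSO 6 h replicate 2 or GSK-J4 6 h replicate 3 (adjusted p = 0.0608 and 0.0954). The MT-ND4L call ended when any 1 of 5 of the 6 libraries was left out, all but DMSO 6 h replicate 3 (adjusted p = 0.0693 to 0.134). It was also lost in DESeq2 (adjusted p = 0.128) and in edgeR with library totals in place of TMM factors (adjusted p = 0.0991). MT-ND1, which lies next to the rRNAs and helps form the quinone site, was not called at 1, 3 or 6 h (log2FC -0.15, -0.05 and -0.07).

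MT-ND5 and MT-ND6 were the 2 mRNAs that rose with GSK-J4. They lie side by side on opposite strands, and MT-ND6 is the mRNA of the light-strand transcript. Strand marking by the kit is not given, so antisense reads across either gene could be counted for it. Whether the 2 rises are separate was not tested. MT-ND6 (ENSG00000198695) read 490.0, 406.0 and 456.8 CPM in DMSO at 6 h and 639.9, 717.0 and 667.9 CPM with GSK-J4, without overlap (log2FC 0.58 ± 0.06, adjusted p = 1.54e-11). It also rose at 3 h (log2FC 0.40 ± 0.06, adjusted p = 2.71e-06) and at 24 h, where it read 894.4, 830.4 and 839.9 CPM against 561.4, 604.3 and 616.8 CPM (log2FC 0.53 ± 0.06, adjusted p = 1.51e-10). MT-ND5, the last large heavy-strand reading frame before MT-CYB, read 2479, 2815 and 2622 CPM at 6 h against 2148, 1842 and 2042 CPM (log2FC 0.39 ± 0.06, adjusted p = 7.44e-07). Its call at 3 h (log2FC 0.21 ± 0.06, adjusted p = 0.0471) was lost when any of the 6 libraries was left out (adjusted p = 0.0694 to 0.225). At 24 h it was called (log2FC 0.21 ± 0.06, adjusted p = 0.00447), and without DMSO 24 h replicate 1 it was not (log2FC 0.15, adjusted p = 0.0853).

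**Figure D2:**
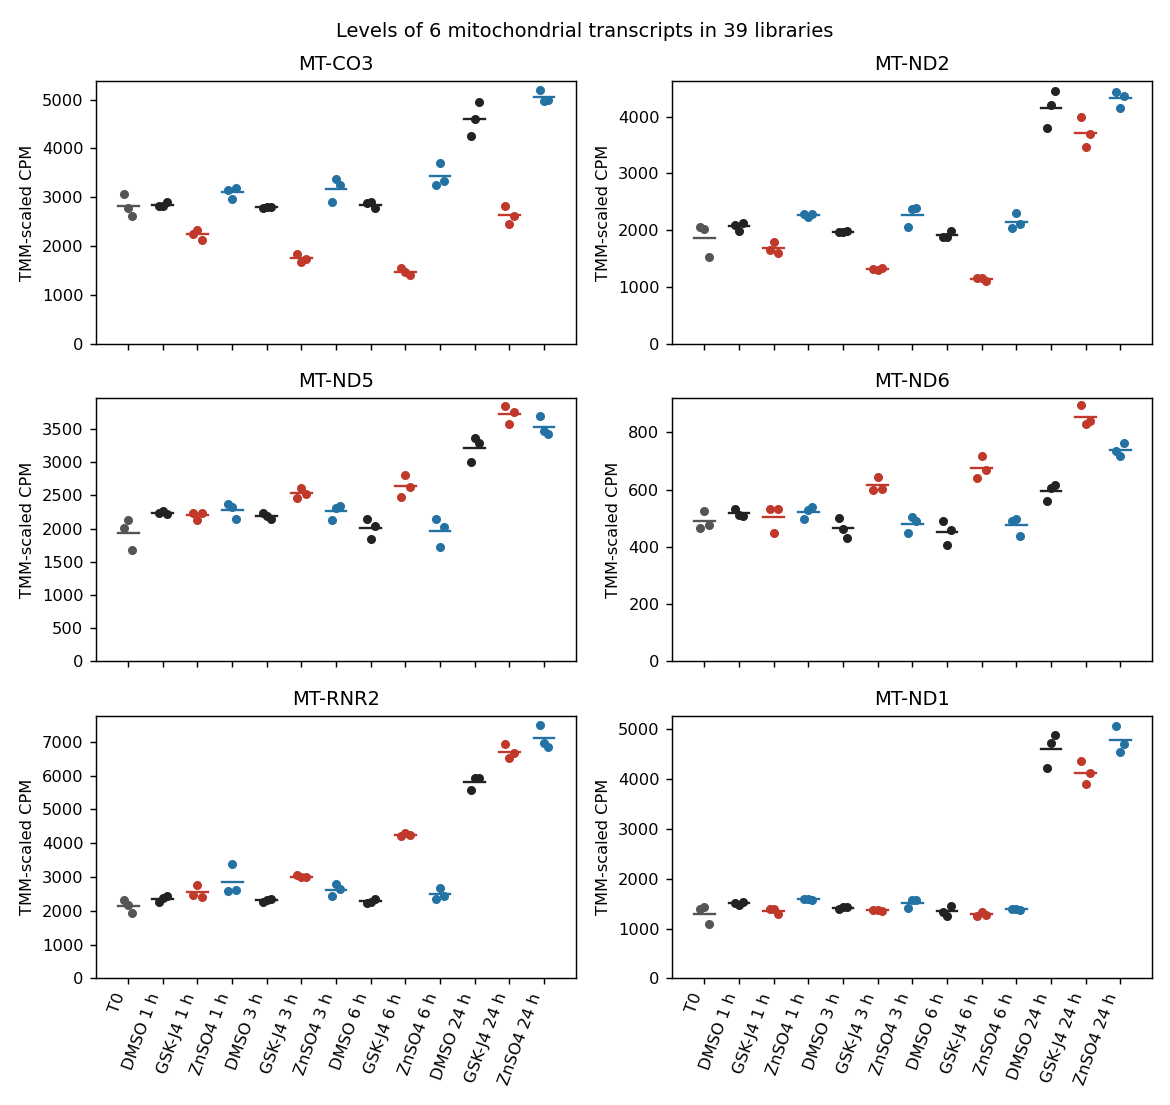
TMM-scaled CPM of MT-CO3, MT-ND2, MT-ND5, MT-ND6, MT-RNR2 and MT-ND1 in each of the 39 libraries (dots) with group means (bars), by treatment and time; grey is T0, black DMSO, red GSK-J4 and blue ZnSO4. MT-CO3 and MT-ND2 are lower with GSK-J4 than DMSO at 6 h, MT-ND5, MT-ND6 and MT-RNR2 higher, and MT-ND1 overlaps between them.

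With GSK-J4, 0 of the 13 mRNAs were called higher and 4 lower at 1 h, where 0.0346% of all genes tested were higher and 0.0692% lower. At 3 h 2 were higher and 7 lower (1.45 and 0.927% of all genes). At 6 h 2 were higher and 10 lower (9.83 and 10.5% of all genes), and at 24 h 2 were higher and 9 lower (15.2 and 16.8% of all genes). Summed epithelial markers were 43.2 to 50.4 CPM in DMSO at 6 h and 38.9 to 41.5 CPM with GSK-J4, where 0 of these 3 markers were called, and their part in the result was not tested. The count of lower mRNAs at 1 h was 2 without DMSO 1 h replicate 1 or 3 or GSK-J4 1 h replicate 1 or 3. The median log2FC of the 13 mRNAs was -0.15, -0.24, -0.52 and -0.36 at the 4 times, beside medians of 0.0007, 0.0037, 0.011 and 0.022 over all genes. At 24 h MT-ND3 and MT-CYB were still lower (log2FC -0.51 ± 0.07 and -0.42 ± 0.07), while MT-ND4 and MT-ND4L did not pass (log2FC -0.01 and -0.06). MT-ND1 and MT-ND2 were called lower at 24 h with the same log2FC of -0.16 (adjusted p = 0.0263 and 0.0381), and both calls ended without DMSO 24 h replicate 2 or 3 or GSK-J4 24 h replicate 2 or 3. With library totals in place of TMM factors both had log2FC -0.07 (adjusted p = 0.358 and 0.384), and in DESeq2 MT-ND2 was not called (adjusted p = 0.0581).

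**Figure D3:**
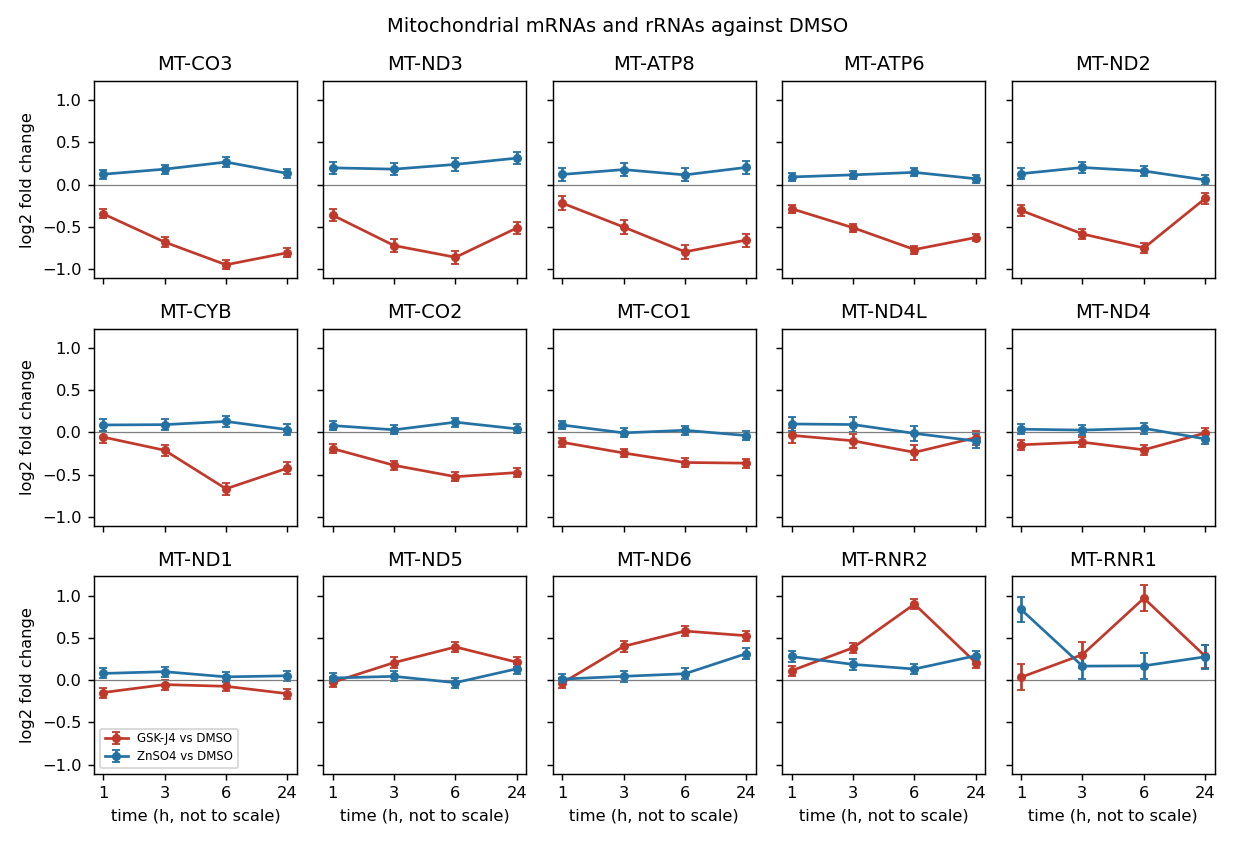
log2 fold change against DMSO of the same time (vertical axis, same scale in all panels) for the 13 mRNAs and 2 rRNAs at 1, 3, 6 and 24 h (horizontal axis, spaced evenly), with GSK-J4 in red and ZnSO4 in blue; bars are standard errors from edgeR. Panels run from MT-CO3, the most lowered mRNA at 6 h of GSK-J4 (-0.95), to MT-ND6 (0.58), followed by the rRNAs.

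Counts of the rRNAs rose with GSK-J4 while those of most mRNAs fell. The kind of RNA selection is not given, and whether rRNA counts follow rRNA levels was not tested. MT-RNR2 (ENSG00000210082), the large rRNA, read 2233, 2255 and 2346 CPM in DMSO at 6 h and 4203, 4302 and 4237 CPM with GSK-J4, without overlap (log2FC 0.90 ± 0.06, adjusted p = 2.78e-19). At 3 h it had risen by less (log2FC 0.38 ± 0.06, adjusted p = 6.75e-06). At 24 h its log2FC was 0.20 ± 0.06 (adjusted p = 0.00589), a call that ended without DMSO 24 h replicate 1 (log2FC 0.16, adjusted p = 0.0633). MT-RNR1, the small rRNA, read 428.7, 396.3 and 429.8 CPM at 6 h against 218.6, 222.4 and 200.02 CPM (log2FC 0.97 ± 0.15, adjusted p = 9.75e-07), and was not called at 1, 3 or 24 h (log2FC 0.03, 0.30 and 0.28).

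**Figure D4:**
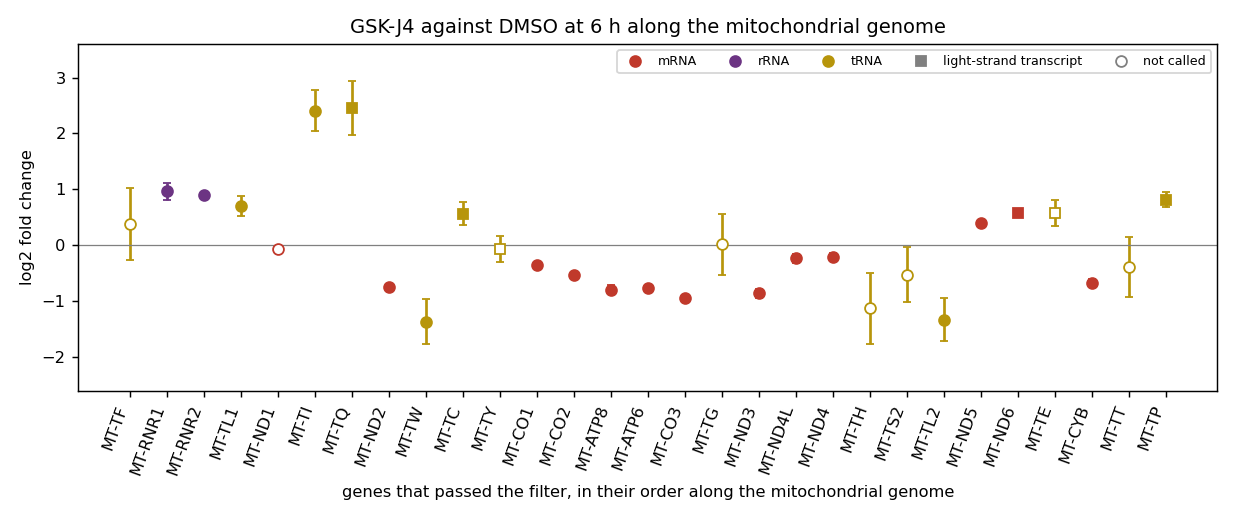
log2 fold change of GSK-J4 against DMSO at 6 h (vertical axis, bars are standard errors) for the 29 mitochondrial genes that passed the filter, placed in their order along the genome; filled symbols were called at adjusted p under 0.05, squares are light-strand transcripts. The rRNAs and their neighbour MT-TL1 are above 0, the run from MT-CO1 to MT-CO3 is below 0, and MT-ND5 and MT-ND6 are above 0.

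tRNAs were thinly covered, with 22018 counts over all 39 libraries. The tRNAs annotated to the light strand, 8 of the 22, held 69.0% of them, and MT-TP, MT-TC, MT-TE, MT-TL1 and MT-TY together 79.4%. Strand marking is not given, so the 69.0% goes by annotation and not by the strand the reads came from. Whether tRNA counts came from mature tRNAs or from uncut precursors was not tested. MT-TI had 7, 6 and 3 counts in the DMSO libraries at 6 h and 31, 29 and 20 with GSK-J4 (log2FC 2.41 ± 0.37, adjusted p = 5.12e-07). Its light-strand neighbour MT-TQ had 5, 4 and 2 counts in DMSO and 20, 21 and 16 with GSK-J4 (log2FC 2.45 ± 0.48, adjusted p = 6.32e-05). Reads across the junction of these genes could be counted for either, so their rises may not be separate. In both genes every GSK-J4 library exceeded every DMSO library. They also rose at 3 h (log2FC 1.65 ± 0.34 and 1.68 ± 0.43; adjusted p = 0.000982 and 0.0163), though the MT-TQ call was lost without DMSO 3 h replicate 2 or 3 or GSK-J4 3 h replicate 1. By 24 h MT-TI had 10, 10 and 13 counts against 21, 11 and 15 in DMSO (log2FC -0.14 ± 0.35, adjusted p = 0.802).

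Among the better covered tRNAs, MT-TP rose at 6 h with 240, 191 and 143 counts against 106, 126 and 118 in DMSO (log2FC 0.82 ± 0.13, adjusted p = 1.38e-06). MT-TL1, a leucine tRNA that directly follows MT-RNR2, rose as well (log2FC 0.71 ± 0.18, adjusted p = 0.00205). MT-TC, for cysteine, was called at 6 h (log2FC 0.56 ± 0.21, adjusted p = 0.0468), and lost the call without any library but DMSO 6 h replicate 3. MT-TW, between MT-ND2 and MT-CO1, and MT-TL2, before MT-ND5, were lower at 6 h with 6, 7 and 3 counts against 14, 19 and 12, and 12, 8 and 2 counts against 18, 23 and 19 (log2FC -1.37 ± 0.41 and -1.33 ± 0.38; adjusted p = 0.011 and 0.00733). The MT-TL2 call ended without GSK-J4 6 h replicate 3 (log2FC -1.02, adjusted p = 0.0666), and the MT-TW call ended without DMSO 6 h replicate 2 or GSK-J4 6 h replicates 1 or 3.

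Counts of tRNAs called were 2 higher and 2 lower at 3 h, 5 higher and 2 lower at 6 h, and 1 higher and 5 lower at 24 h of GSK-J4, of 14 tested. Over all genes 1.45 and 0.927% were higher and lower at 3 h, 9.83 and 10.5% at 6 h, and 15.2 and 16.8% at 24 h. At 3 h the lower pair was MT-TL2 and MT-TS2 (log2FC -1.20 ± 0.29 and -1.77 ± 0.43), and each call ended without GSK-J4 3 h replicate 2 and without 1 DMSO library. At 24 h MT-TW was lower with 5, 10 and 9 counts against 26, 26 and 37 in DMSO (log2FC -1.52 ± 0.33, adjusted p = 0.000215). MT-TG had 2 counts in each GSK-J4 library against 11, 14 and 6 (log2FC -1.94 ± 0.61, adjusted p = 0.0102; adjusted p = 0.0523 without DMSO 24 h replicate 2). MT-TS2, MT-TH (histidine) and MT-TY (tyrosine) were the other lower tRNAs (log2FC -1.20, -1.34 and -0.41), and MT-TE (glutamate) was higher (log2FC 0.61); all 4 calls were lost when 1 of at least 2 libraries was left out. MT-TF (phenylalanine) and MT-TT (threonine) passed the filter but were not called against DMSO. Of the 8 untested tRNAs, MT-TR (arginine), MT-TV (valine) and MT-TM (methionine) held the most counts, 150, 133 and 127 over all libraries.

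Between 3 and 6 h the effect of GSK-J4 grew for some members, by a test of the difference between the effects. MT-CYB, MT-CO3 and MT-ATP6 were lowered further at 6 h than at 3 h (difference in log2FC -0.46 ± 0.10, -0.27 ± 0.08 and -0.26 ± 0.07; 1.75% of all genes had a higher and 1.92% a lower effect), and MT-RNR2 was raised further (0.52 ± 0.09, adjusted p = 2.71e-05). The MT-CO3 difference was lost when any of 9 of the 12 libraries was left out, and the MT-ATP6 difference without GSK-J4 6 h replicate 3. From 6 to 24 h the effect shrank for MT-ND2 (0.59 ± 0.09, adjusted p = 2.21e-06), MT-ND3 (0.35 ± 0.11, adjusted p = 0.0344), MT-RNR1 (-0.69 ± 0.21, adjusted p = 0.0315) and MT-RNR2 (-0.69 ± 0.09, adjusted p = 1.83e-08), where 2.72% of all genes had a higher and 3.04% a lower effect. The tRNAs MT-TI and MT-TP did so too (-2.55 ± 0.52 and -0.78 ± 0.17). The MT-ND3 and MT-RNR1 differences were lost without any of 8 and of 9 of the 12 libraries. In DESeq2 neither difference was called (adjusted p = 0.0873 and 0.191), and with library totals in place of TMM factors that of MT-RNR1 was not (adjusted p = 0.0558 in edgeR).

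The makeup of the mitochondrial mRNA counts was then compared, which does not depend on library scaling. For each mRNA the log2 ratio to the sum of the other 12 was compared between treatments, with labels exchanged within each time (2-sided exact permutation test over 24 libraries; 39 ratios were tested, and the smallest possible p is 1.25e-05). The 13 ratios depend on each other, since each mRNA is part of the sum for the others, and their p-values are not adjusted for the 39 tests. A higher ratio is a gain on the other 12 and need not be a rise. For instance, MT-ND4 and MT-ND4L were called lower than in DMSO at 6 h. With GSK-J4, 5 of 13 ratios were higher and 6 lower than in DMSO at exact p under 0.05. Averaged over the 4 times, MT-ND6 (0.65, exact p = 5e-05) and MT-ND5 (0.51, exact p = 2.5e-05) gained most, and MT-ND4, MT-ND1 and MT-ND4L gained 0.18, 0.17 and 0.16. MT-CO3 lost most (-0.46, exact permutation p = 1.25e-05), followed by MT-ND3 (-0.35), MT-ATP6 (-0.30), MT-ATP8 (-0.28), MT-ND2 (-0.19) and MT-CO2 (-0.14). The MT-CO1 and MT-CYB ratios did not pass (-0.0016, exact permutation p = 0.942, and -0.08, exact permutation p = 0.0648). The MT-CYB ratio was higher at 1 and 3 h (0.12 and 0.04) and lower at 6 and 24 h (-0.32 and -0.16), and that of MT-ND2, lower at 1, 3 and 6 h, was higher by 0.13 at 24 h.

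In shares of the pool, MT-ND4 took 19.28 ± 0.56% of mitochondrial mRNA counts in DMSO at 6 h and 21.76 ± 0.46% with GSK-J4 (SD, n = 3), and MT-ND5 6.341 ± 0.511% and 10.84 ± 0.74%. MT-CO3 took 8.984 ± 0.092% and 6.061 ± 0.169%. MT-CO1 held 17.67 ± 0.37% and 17.98 ± 0.76%, values that overlap.

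**Figure D5:**
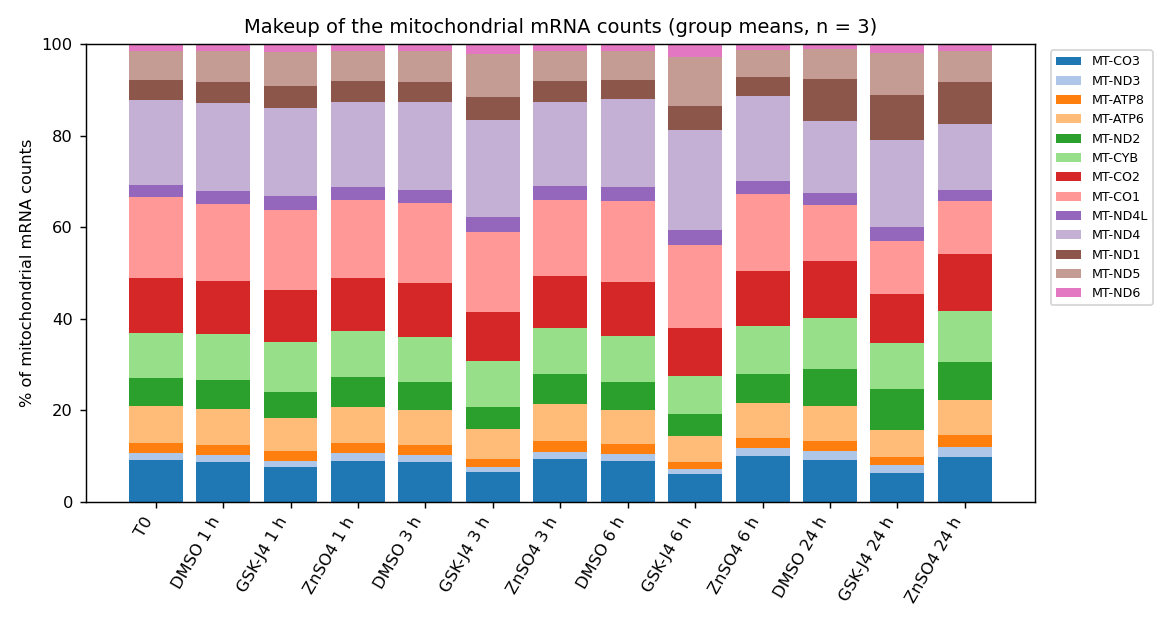
Makeup of the mitochondrial mRNA counts: percent of the 13 mRNAs' counts (vertical axis) taken by each mRNA, as means of the 3 libraries in each of the 13 groups. MT-CO3, at the base, is narrower and MT-ND5, near the top, wider at 6 h with GSK-J4 (6.061 and 10.84%) than with DMSO (8.984 and 6.341%), and MT-ND1 widens at 24 h in all treatments.

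ZnSO4 moved few mitochondrial mRNAs, and each called one was higher. These comparisons use the same DMSO libraries as those of GSK-J4. At 6 h MT-CO3 read 3255, 3708 and 3333 CPM against 2879, 2895 and 2774 CPM in DMSO (log2FC 0.27 ± 0.05, adjusted p = 0.000329), and MT-ND3 and MT-ATP6 were also called (log2FC 0.24 ± 0.07 and 0.15 ± 0.05; adjusted p = 0.0275 and 0.0353). The counts were 0, 2, 3 and 2 of 13 higher at 1, 3, 6 and 24 h and 0 lower at each time, where 0.498, 6.59, 4.81 and 3.98% of all genes were higher and 0.18, 4.16, 4.51 and 5.58% lower. No mRNA was lower at an unadjusted p under 0.05 in edgeR, and DESeq2 called 0 lower. Without ZnSO4 3 h replicate 1 the count at 3 h was 5, and without ZnSO4 3 h replicate 2 or 3 or DMSO 3 h replicate 1 or 2 it was 0. Of the 2 fibroblast markers tested, 0 were higher and 2 lower at 3 h of ZnSO4, and their part in the result was not tested. At 6 h 1 mRNA, MT-CO3, stayed called without DMSO 6 h replicate 1 or 2 or ZnSO4 6 h replicate 2. At 24 h the higher mRNAs were MT-ND3 (log2FC 0.31 ± 0.07, adjusted p = 0.0016) and MT-ND6 (log2FC 0.31 ± 0.06, adjusted p = 0.000197); MT-ND3 was not called without DMSO 24 h replicate 1 (log2FC 0.23, adjusted p = 0.0595).

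Among the rRNAs, MT-RNR1 was called higher at 1 h of ZnSO4 through 1 library: the values were 209.5, 630.1 and 248.0 CPM, against 184.9, 215.0 and 204.1 CPM in DMSO (log2FC 0.84 ± 0.15, adjusted p = 0.000285). Without ZnSO4 1 h replicate 2 the log2FC was 0.19 (adjusted p = 0.623), and that of MT-RNR2 went from 0.28 (adjusted p = 0.00538) to 0.14 (adjusted p = 0.597). MT-RNR2 was also called higher at 3 h. That call was lost in DESeq2 (adjusted p = 0.141), in edgeR with library totals (adjusted p = 0.103) or RLE factors, another scaling (adjusted p = 0.0529). It was also lost without any DMSO 3 h library or ZnSO4 3 h replicate 2 or 3 (adjusted p = 0.0645 to 0.212). MT-RNR2 rose at 24 h, to 7498, 6970 and 6857 CPM from 5588, 5937 and 5936 CPM (log2FC 0.29 ± 0.06, adjusted p = 0.000554). The only tRNA called against DMSO was MT-TE at 24 h (log2FC 0.95 ± 0.20, adjusted p = 0.000546). In the pool of mRNAs, 5 ratios were higher with ZnSO4 and 2 lower at exact p under 0.05. MT-ND3 (0.16, exact permutation p = 0.00055) and MT-CO3 (0.12, exact permutation p = 2.5e-05) gained most, and MT-ND4 (-0.08, exact permutation p = 0.000138) and MT-CO1 (-0.07, exact permutation p = 0.00101) lost.

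GSK-J4 and ZnSO4 were also compared directly, in the fit of all groups, where DMSO libraries bear on the dispersion, the filter and the scaling. GSK-J4 was lower than ZnSO4 in 8 of 13 mRNAs at 1 h (0.526% of all genes), 8 at 3 h (6.12%), 9 at 6 h (9.88%) and 9 at 24 h (12.5%). It was higher in 0, 1, 2 and 1 mRNAs, beside 0.138, 3.99, 8.53 and 12% of all genes. Fitted from their own libraries alone, they had 11 lower and 2 higher at 3 h. Without ZnSO4 1 h replicate 2 there were 7 lower at 1 h, and without ZnSO4 3 h replicate 1 there were 10 lower and 1 higher at 3 h. MT-ND3 had the lowest log2FC of the mRNAs at 1 and 3 h (-0.56 ± 0.07 and -0.90 ± 0.07; adjusted p = 2.36e-07 and 1.45e-15), and MT-CO3 at 6 and 24 h. MT-CO3 had log2FC -0.47 ± 0.05, -0.86 ± 0.05, -1.22 ± 0.06 and -0.94 ± 0.05 at the 4 times (adjusted p = 6.33e-09, 2.65e-20, 1.32e-27 and 7.24e-22). MT-ND6 was higher with GSK-J4 at 3, 6 and 24 h (log2FC 0.35, 0.51 and 0.21), and at 24 h (adjusted p = 0.00619) the call ended on leaving out ZnSO4 24 h replicate 2 (log2FC 0.18, adjusted p = 0.054). MT-RNR2 was higher at 6 h (log2FC 0.77 ± 0.06, adjusted p = 2.59e-16) but not called at 24 h (-0.08 ± 0.06, adjusted p = 0.339), where the libraries overlapped.

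In DMSO, mitochondrial RNAs were higher at 24 h than at the start. No mRNA, rRNA or tRNA was called in DMSO against T0 at 1, 3 or 6 h in edgeR, where 0.0346, 0.0968 and 0.0138% of all genes were called, and DESeq2 called no mRNA there either. At unadjusted p under 0.05 stood 1112, 1872 and 1778 of all genes. At 24 h all 13 mRNAs and both rRNAs were higher than at T0, and 6 of 14 tRNAs, beside 30.5% of all genes higher and 32.7% lower. Markers of other cell types moved in the same comparison: EPCAM and KRT8, 2 of 3 epithelial markers, were higher, and so were COL1A1 and COL1A2, the 2 fibroblast markers tested. Summed epithelial markers ranged from 45.0 to 51.3 CPM at T0 and from 68.7 to 76.5 CPM in DMSO at 24 h, and summed fibroblast markers from 6.16 to 21.1 and from 8.92 to 42.2 CPM, which overlap. Of the 2 B cell markers tested, 0 were higher and 1 lower, and of the 8 plasma cell markers 3 were higher and 4 lower. The part of these markers in the result was not tested. MT-ND1 read 1387, 1429 and 1085 CPM at T0 and 4224, 4710 and 4870 CPM in DMSO at 24 h (log2FC 1.82 ± 0.06, adjusted p = 7.39e-36). MT-RNR1 went from 205.9, 166.2 and 143.1 CPM to 742.3, 791.9 and 796.5 CPM (log2FC 2.17 ± 0.15, adjusted p = 1.08e-19), and MT-RNR2 had log2FC 1.44 ± 0.06. These 3 genes follow each other along the heavy-strand transcript, with MT-ND1 separated from MT-RNR2 by MT-TL1, which rose too (log2FC 0.98 ± 0.16). MT-ND2 and MT-ND3 rose by 1.15 ± 0.06 and 1.04 ± 0.07 (log2 scale), and MT-CYB by 0.90 ± 0.07.

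Between 0.47 and 0.74 lay MT-CO2, MT-ND5, MT-ATP8, MT-CO3, MT-ND4L, MT-ATP6 and MT-ND4 (log2FC 0.73, 0.73, 0.72, 0.71, 0.66, 0.64 and 0.47). MT-ND6 and MT-CO1 had the lowest values (log2FC 0.28 ± 0.06 and 0.20 ± 0.05). With library totals in place of TMM factors, the median of all genes was -0.24 in this comparison, the log2FC of MT-CO1 was -0.02 (adjusted p = 0.733) and that of MT-ND6 0.06 (adjusted p = 0.433), so the call of each depends on the scaling. Without T0 replicate 3 all 13 mRNAs were still called, with log2FC 1.71 for MT-ND1, 1.03 for MT-ND2, 0.73 for MT-CYB and 0.13 for MT-CO1 (adjusted p = 0.027), and both rRNAs and the 6 tRNAs kept their calls (MT-RNR1 2.06, MT-RNR2 1.37, MT-TF 3.12, MT-TP 1.67). Median log2FC was 0.72 over the 13 mRNAs and -0.017 over all genes. Of the tRNAs, MT-TF, the first gene after the control region, had 5, 1 and 3 counts at T0 and 30, 31 and 18 at 24 h (log2FC 2.97 ± 0.45, adjusted p = 5.24e-08), and MT-TP rose by 1.67 ± 0.12 (log2 scale, adjusted p = 2.14e-19).

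Levels per kilobase of transcript differed widely between genes. Over the 12 T0 and DMSO libraries up to 6 h, MT-CO2 had the highest mean (5480 ± 172 CPM per kb, SD), followed by MT-ND4 (4406 ± 374). MT-ATP6, MT-CO3 and MT-CO1 came next at 3616 ± 145, 3607 ± 135 and 3591 ± 176 CPM per kb, which did not differ beyond their spread. MT-ATP8 (3392 ± 279), MT-ND4L (3105 ± 366) and MT-CYB (2785 ± 265) overlapped with their neighbours in this order. MT-ND2 (1880 ± 148), MT-ND1 (1457 ± 128), MT-ND3 (1380 ± 106), MT-ND5 (1157 ± 99) and MT-ND6 (915.7 ± 72.2) were lowest of the mRNAs. The rRNAs stood at 1459 ± 82 (MT-RNR2) and 208.7 ± 25.2 (MT-RNR1) CPM per kb; the kind of RNA selection is not given in the sources used here.

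Across the 13 mRNAs, the log2FC of GSK-J4 at 6 h was described against gene features, without a test, since the genes share libraries and all but MT-ND6 share the heavy-strand transcript. Pearson's r was 0.343 with annotated length, 0.148 with GC content, 0.296 with order along the genome, -0.441 with level per kb and -0.194 with the change of DMSO from T0 to 24 h (Spearman's rho 0.363, 0.151, 0.247, -0.357 and -0.225). Of the nuclear copies, which leave out the MTRNR2L genes, 13 passed the filter. At 6 h of GSK-J4, 3 were called, all lower: MTCO3P12 (log2FC -0.94 ± 0.07, adjusted p = 2.47e-17), MTCO1P12 (-0.32 ± 0.07, adjusted p = 0.000124) and MTND2P28 (-1.09 ± 0.35, adjusted p = 0.018). The other 10 were not called at 6 h, among them MTCO2P12 (-0.13 ± 0.30), MTCO2P2 (0.19 ± 0.53), MTCO1P40 (0.10 ± 0.46) and MTATP6P1 (-0.51 ± 0.28). At 24 h the called copies were MTCO3P12 (-0.70 ± 0.07), MTCO1P12 (-0.40 ± 0.06) and MTND6P4 (0.64 ± 0.11). Whether these counts come from the nuclear copies or from mitochondrial RNA was not tested.

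Nuclear genes for copying and transcribing mitochondrial DNA were called in part, and only downward against DMSO with GSK-J4. Of 17 measured genes, 0 were higher and 7 lower at 6 h, and 0 and 7 at 24 h, beside 10.5 and 16.8% of all genes lower. TFAM, which packages mitochondrial DNA and activates its promoters, fell at 6 h (log2FC -0.20 ± 0.06, adjusted p = 0.0132) and 24 h (-0.52 ± 0.06, adjusted p = 3.13e-11). POLRMT, the polymerase, had log2FC -0.15 ± 0.07 at 6 h (adjusted p = 0.111) and fell by 0.31 at 24 h (adjusted p = 0.000308). TWNK, the helicase of mitochondrial DNA, SSBP1, which binds its single strands, and TFB2M, a transcription initiation factor, led at 6 h (log2FC -0.48, -0.30 and -0.44). TWNK (-0.42) and TOP1MT, a topoisomerase (-0.37), followed TFAM at 24 h. At 3 h TFB2M alone was called (log2FC -0.36 ± 0.10, adjusted p = 0.0195).

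Genes for processing, stability and decay of mitochondrial RNA, 24 measured of 26 listed, had 0 higher and 2, 11 and 15 lower at 3, 6 and 24 h of GSK-J4, beside 0.927, 10.5 and 16.8% of all genes lower. TRMT10C, a subunit of the enzyme that cuts the 5′ ends of mitochondrial tRNAs, fell by 0.39 at 3 h and 0.66 at 6 h (log2 scale; adjusted p = 3.63e-06 and 9.93e-13), and FASTKD5, needed for maturation of mRNAs without a tRNA at one end, was the other gene at 3 h (log2FC -0.31). GRSF1, an RNA granule protein that binds light-strand RNAs, fell by 0.34 at 6 h and 0.60 at 24 h. ELAC2, which cuts tRNA 3′ ends, had log2FC -0.36 and -0.60. LRPPRC and SLIRP form a complex that stabilises the mRNAs. LRPPRC had log2FC 0.03 ± 0.05 at 6 h (adjusted p = 0.77) and -0.18 ± 0.05 at 24 h (adjusted p = 0.0024), and SLIRP -0.24 ± 0.08 (adjusted p = 0.0289) and -0.64 ± 0.08 (adjusted p = 2.03e-09).

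The nuclear partners of the mitochondrially encoded subunits were lower with GSK-J4 mainly at 24 h. Complex I had 0 higher and 5 lower of 37 at 6 h, and 1 higher and 17 lower at 24 h, beside 10.5 and 16.8% of all genes lower at these times. Complex III had 2 and 9 lower of 9, complex IV 1 and 8 of 11, and ATP synthase 8 and 14 of 16, with 0 higher at either time. Complex II, which has no mitochondrially encoded subunit, had 1 and 3 of 4 lower. ATP5F1A and ATP5F1B, the catalytic core of ATP synthase, had log2FC -0.39 ± 0.04 and -0.37 ± 0.05 at 24 h, and ATP5PB of its stalk -0.40 ± 0.05. CYC1 and UQCRFS1 of complex III, the cytochrome c1 and iron-sulfur subunits, had log2FC -0.40 and -0.39, and COX5A and COX6B1 of complex IV -0.28 and -0.25. NDUFS3 and NDUFA10 of complex I had -0.37 and -0.30, and NDUFV3, the gene that rose, 0.59 ± 0.10 (adjusted p = 4.73e-06). The medians of these 5 lists at 24 h lay between -0.18 and -0.27, and that of all genes was 0.022.

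Regulators of mitochondrial biogenesis (7 measured of 8) had 4 lower at 6 h and 2 at 24 h with GSK-J4, beside the same shares of all genes. PPRC1 and PPARGC1B, coactivators of the PGC-1 family, fell by 0.52 and 0.59 at 6 h, and ESRRA, a nuclear receptor they act with, by 0.33. With ZnSO4, the transcription list had 4, 3 and 4 of 17 lower at 3, 6 and 24 h, and 0, 0 and 1 higher, and the processing list 7, 4 and 4 of 24 lower and 0 higher. Over all genes 4.16, 4.51 and 5.58% were lower and 6.59, 4.81 and 3.98% higher. POLRMT fell at 3 h of ZnSO4 (log2FC -0.36 ± 0.07, adjusted p = 0.000107) and LRPPRC at 6 h (-0.33 ± 0.05, adjusted p = 8.98e-07), and TWNK at 24 h (-0.50 ± 0.09). In DMSO at 24 h against T0 the partners of complexes III and IV and ATP synthase had 6 of 9, 10 of 11 and 9 of 16 higher and 0 lower, and those of complex I 17 higher and 5 lower of 37, beside 30.5% of all genes higher. TFAM rose (log2FC 0.76 ± 0.06, adjusted p = 8.88e-19), POLRMT had log2FC -0.01 (adjusted p = 0.917), and MTERF3 and TEFM, a repressor and an elongation factor of mitochondrial transcription, fell by 1.61 and 1.54.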

How the data were processed

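RNA was extracted with Trizol and libraries were made with NEBNext Ultra RNA kits, per the labels' protocols. The authors deposited raw read counts per gene for 39 libraries; HISAT2 2.1.0 and hg19 are named per the submitters' processing notes. Not given in the sources used here: counting tool, annotation, strand setting, RNA selection, dose. The protocol names 3, 6 and 24 h, and the 1 h groups were taken from the labels.

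Counts were fitted for all groups together with edgeR 4.0.16 (R 4.3.3, limma 3.58.1), TMM scaling, filterByExpr at a minimum count of 10 and a quasi-likelihood F-test, with Benjamini-Hochberg adjustment over 14460 genes. DESeq2 1.42.0, other scalings, no filter, fits of the compared groups alone and leaving out each library were alternatives. The ratio test used Python 3.11.15. Scripts were tested on simulated data. Replicates carry numbers in accession order. No replicate pair agreed within sampling noise (chi-square per gene 1.195 to 6.586 over 39 pairs). A count of 0 allows up to 3 counts.

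Named genes were all mRNAs and rRNAs, tRNAs past the filter and the 3 most counted others, POLRMT, TFAM, LRPPRC and SLIRP, and from each nuclear list up to 3 genes in each direction by smallest adjusted p; not all of these are printed. The members and lists were chosen with earlier results of these data known. A planned permutation test of class shares is not reported, because the members were chosen with results known.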

Additional observations from a re-analysis of the deposited data

Results flagged for a closer look

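These members had a GSK-J4 effect that differed between 2 times, by edgeR's test of the difference itself with Benjamini-Hochberg adjustment. From 3 to 6 h the difference in log2 fold change was -0.4559 for MT-CYB, -0.2688 for MT-CO3, -0.2586 for MT-ATP6 and 0.5166 for MT-RNR2. From 6 to 24 h it was 0.5879 for MT-ND2, 0.3479 for MT-ND3, -0.6883 for MT-RNR1, -0.6942 for MT-RNR2, -2.5478 for MT-TI and -0.7822 for MT-TP. As given above, the calls for MT-CO3, MT-ND3 and MT-RNR1 were lost on leaving out any of most of the compared libraries. That of MT-ATP6 was lost without GSK-J4 6 h replicate 3.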

How the results depend on the processing

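Of 870 alternative values for 54 summary results, 811 stayed within the tolerance and 59 moved. Counts that stayed at 0 are among the 811. Only the differences in class shares could be labelled reversed, and 0 were. Counts of mRNAs called, of 13, that differed by over 1.5 times are given first, and the cause was not tested. With the compared groups fitted alone, GSK-J4 at 1 h had 7 lower (4 in the report), ZnSO4 had 4 higher at 3 h and 5 at 24 h (2 and 2), GSK-J4 against ZnSO4 had 2 higher at 3 h (1), and the GSK-J4 effect had 1 higher and 6 lower from 3 to 6 h (0 and 3) and 4 higher from 6 to 24 h (2). With library totals, ZnSO4 had 1 higher at 3 h and 4 at 24 h, GSK-J4 against ZnSO4 had 2 higher at 3 h, and the effect from 6 to 24 h had 4 higher. With DESeq2, GSK-J4 against ZnSO4 had 5 lower at 1 h (8), GSK-J4 had 1 higher at 3 h (2, and 1 also with RLE factors), ZnSO4 had 1 higher at 3 h, and the effect from 6 to 24 h had 1 higher. Without the filter, DMSO against T0 had 1 higher at 1 h (0), ZnSO4 had 4 higher at 3 h and GSK-J4 against ZnSO4 had 2 higher at 3 h. Leaving out 1 library gave 2 to 4 lower for GSK-J4 at 1 h and 5 to 7 for GSK-J4 against ZnSO4. It gave 1 to 1 higher for GSK-J4 at 3 h and 1 to 2 at 24 h. For ZnSO4 it gave 0 to 5 higher at 3 h, 1 to 3 at 6 h and 1 to 3 at 24 h. For GSK-J4 against ZnSO4 at 24 h it gave 0 to 1 higher. For DMSO against T0 it gave 0 to 2, 0 to 1 and 0 to 2 higher at 1, 3 and 6 h, and for the GSK-J4 effect 1 to 3 lower from 3 to 6 h and 1 to 2 higher from 6 to 24 h. Smaller changes with library totals were 7 lower for GSK-J4 at 24 h (9) and for GSK-J4 against ZnSO4 at 24 h (9), and 11 higher for DMSO at 24 h against T0 (13). GSK-J4 at 6 h had 9 lower (10) with library totals and with DESeq2. ZnSO4 at 6 h had 2 higher (3) with RLE factors, no filter, the compared groups alone and DESeq2. A geometric-mean denominator gave 3 higher ratios with ZnSO4 (5), and TMM-scaled CPM a rRNA share difference of 0.1043 points with GSK-J4 (0.1188). With library totals the MT-CO1 log2FC in DMSO at 24 h reversed, to -0.0201 against T0 and -0.085 against DMSO at 6 h, where the medians of all genes were -0.2391 and -0.2142. No paired analysis was possible because the labels give no replicate numbers that pair libraries. Low counts limit the precision of the tRNA values.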
